A study of Mus musculus with 8 samples.

Results

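The 7 genes described here encode subunits of the GABA-A receptor, Gabra2, Gabra3, Gabra4, Gabra5, Gabrb1, Gabrb2 and Gabrd. They were chosen by name from this receptor family with earlier results of these data known. The shares of their pairs called below are therefore not those of a list independent of the data. All 7 were found among the 26711 features of the count matrix, which hold 19 GABA-A subunit genes in all. The GABA-A receptor is a chloride channel opened by GABA, the main inhibitory transmitter of the cortex, and it is built as a ring of subunits drawn from several gene families. Alpha subunits, with the beta subunits, form the site where GABA binds, and the alpha chosen also sets kinetics and drug sensitivity. Gamma subunits are found in most synaptic receptors, whereas the delta subunit replaces gamma in receptors outside the synapse that respond to low ambient GABA. In visual cortex the makeup of these receptors changes during postnatal development and differs between cell types.

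The study profiled nuclei of primary visual cortex (V1) from mice at postnatal day 21 by single-nucleus RNA sequencing. Every mouse carried the GR fl/fl alleles, in which the glucocorticoid receptor gene Nr3c1 can be deleted by Cre, and every mouse received an AAV at birth. The vector was of serotype AAV2/5 and held the GfaABC1D promoter, Cre for GR-KO mice or the inactive ΔCre for GR-Con mice, membrane-bound EGFP (EGFP-CAAX), the 4x6T element and a WPRE, so that the controls also carried the floxed alleles, the virus and EGFP. GfaABC1D is a short astrocyte promoter from the Gfap gene, so the deletion was aimed at astrocytes. Mice were raised under normal rearing (NR) or dark rearing (DR), giving 4 groups of 2 libraries each, 1 from a female and 1 from a male, and values below are given for the female first and the male second in each group. Nuclei were sorted on the DNA dye DRAQ5 per the labels, and the methods of the study add a gate for GFP-negative events, so nuclei with strong GFP may be few among the astrocytes. With 2 mice in a group, p-values measure the spread between these mice only.

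The libraries held 9517 to 15161 nuclei and 168632129 to 288774016 UMIs, and 102330 nuclei had one of 20 cell type names given by the authors. Of 101098 distinct barcodes, 1220 (1.207%) were seen in more than 1 library. Of 61 type markers, 49 had their highest level in the type they mark. None of the 3 markers listed for L4 and none of the 3 for L6IT did so. No marker of L5PT did so either, with Pou3f1 highest in oligodendrocyte precursor cells, Fezf2 highest in L5NP and Fam19a1 not among the features. For L5IT, L5NP and Vip 1 or more markers peaked elsewhere, so all these names are the authors' clusters rather than groups checked here. Nr3c1 was at 207 to 263 CPM in the astrocytes of the 4 GR-Con libraries and at 268 to 284 CPM in those of the 4 GR-KO libraries. 3′ tags read the end of a transcript and not a deleted inner part, and where the deletion lies is not given in the sources used here, so this level does not check the knockout. UMIs of Cre numbered 0 in each GR-Con library and 190 to 1054 in each GR-KO library. UMIs were summed per library and cell type, and a level is the CPM value (UMIs per 1000000 UMIs) of that sum, so that it is a share of the RNA of a cell type and a different mix of nuclei within a type cannot be told apart from a different level per nucleus.

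All members but Gabrd lie in clusters with other subunit genes (GRCm38). Gabra2 (chr5:70957597-71095849, minus strand), Gabra4 (chr5:71569749-71658308, minus) and Gabrb1 (chr5:71658113-72149037, plus) share chromosome 5 with Gabrg1. Gabra5 (chr7:57407672-57510059, minus) lies beside Gabrg3. Gabrb2 (chr11:42419757-42629028, plus) shares chromosome 11 with Gabra6. Gabra3 (chrX:72432681-72656848, minus) neighbours Gabre and Gabrq, and Gabrd (chr4:155384980-155398112, minus) has no other subunit gene beside it. Gabra4 and Gabrb1 overlap at their 5′ ends on opposite strands, and the default counting of Cell Ranger, which the methods name, takes reads of the sense strand.

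Promoter sequence (RefSeq, GRCm38.p6, 250 bases before to 50 after a start, written 5′ to 3′ along the gene) was found for 6 of the 7 members, in 10 windows. The 3 windows below belong to the 3 subunit genes detected in the largest shares of astrocytes, the cell type in which GR was targeted, and capitals mark CpG dinucleotides. They are chr5:71095800-71096099 (minus strand) for Gabra2, chr5:71658259-71658558 (minus) for Gabra4 and chr5:71657671-71657970 (plus) for the upstream start of Gabrb1.
Gabra2: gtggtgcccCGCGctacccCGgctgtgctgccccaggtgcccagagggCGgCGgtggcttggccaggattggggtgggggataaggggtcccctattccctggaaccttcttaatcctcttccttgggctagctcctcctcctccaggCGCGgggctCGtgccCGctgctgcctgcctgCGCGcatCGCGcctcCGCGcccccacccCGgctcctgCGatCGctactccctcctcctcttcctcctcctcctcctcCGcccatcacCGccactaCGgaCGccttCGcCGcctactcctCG
Gabra4: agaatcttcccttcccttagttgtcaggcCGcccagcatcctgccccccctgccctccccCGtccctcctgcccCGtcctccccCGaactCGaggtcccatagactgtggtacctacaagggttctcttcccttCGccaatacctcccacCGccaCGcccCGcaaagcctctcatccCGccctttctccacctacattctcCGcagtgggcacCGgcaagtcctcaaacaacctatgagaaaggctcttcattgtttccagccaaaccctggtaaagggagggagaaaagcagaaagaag
Gabrb1: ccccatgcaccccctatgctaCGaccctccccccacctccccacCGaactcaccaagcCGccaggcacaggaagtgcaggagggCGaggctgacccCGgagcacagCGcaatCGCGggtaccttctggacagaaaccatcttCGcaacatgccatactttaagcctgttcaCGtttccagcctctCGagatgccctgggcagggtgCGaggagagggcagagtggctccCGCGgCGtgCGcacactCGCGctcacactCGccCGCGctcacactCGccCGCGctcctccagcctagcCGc
The Gabra2 window was 70% G and C with 25 CpG, that of Gabrb1 66% with 25 CpG and that of Gabra4 58.7% with 12 CpG, against medians of 52.7% and 7 CpG over 32851 windows of the same length. The starts of Gabra4 and Gabrb1 were 387 bases apart, with the genes running over one another. Both Gabra3 windows differed from these, at 39.3% and 43% G and C with 0 CpG. On both strands, the full palindromic glucocorticoid response element was in 0 of the 10 windows and in 0.00913% of all windows. Its right arm alone, TGTTCT, was in 2 of the 3 Gabrb2 windows and in 19.0% of all. TGACGTCA (cyclic AMP response, 1.79% of all windows), TGACTCA (AP-1, 5.20%) and the full palindromic NFI site (0.0365%) were in none of the 10. The letters TATAAA of the TATA box were in 1 window of Gabrb2 and both of Gabra3, against 13.6% of all. In Gabra3 they lay on the opposite strand, in a stretch that both windows share, so this is a single site.

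Levels were compared over the 15 cell types with at least 10 nuclei in every library, and chandelier cells, microglia, endothelial cells, smooth muscle cells with pericytes and VLMC (vascular leptomeningeal cells) were left out for too few nuclei. Each subunit gene had its own order of cell types. For each gene, neighbours in that order were compared within libraries by an exact two-sided permutation test of the paired log2 differences, and 34 of 98 neighbouring pairs differed after Benjamini-Hochberg adjustment. Types further apart in an order were not compared, so a run of neighbours that did not differ does not show that its ends are alike. The smallest p that 8 libraries allow is 0.0078125, adjusted 0.0255. With 7 libraries the smallest p is 0.015625, and 32 to 35 pairs differed without 1 library, save that 0 did without the NR GR-KO male.

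**Figure D1:**
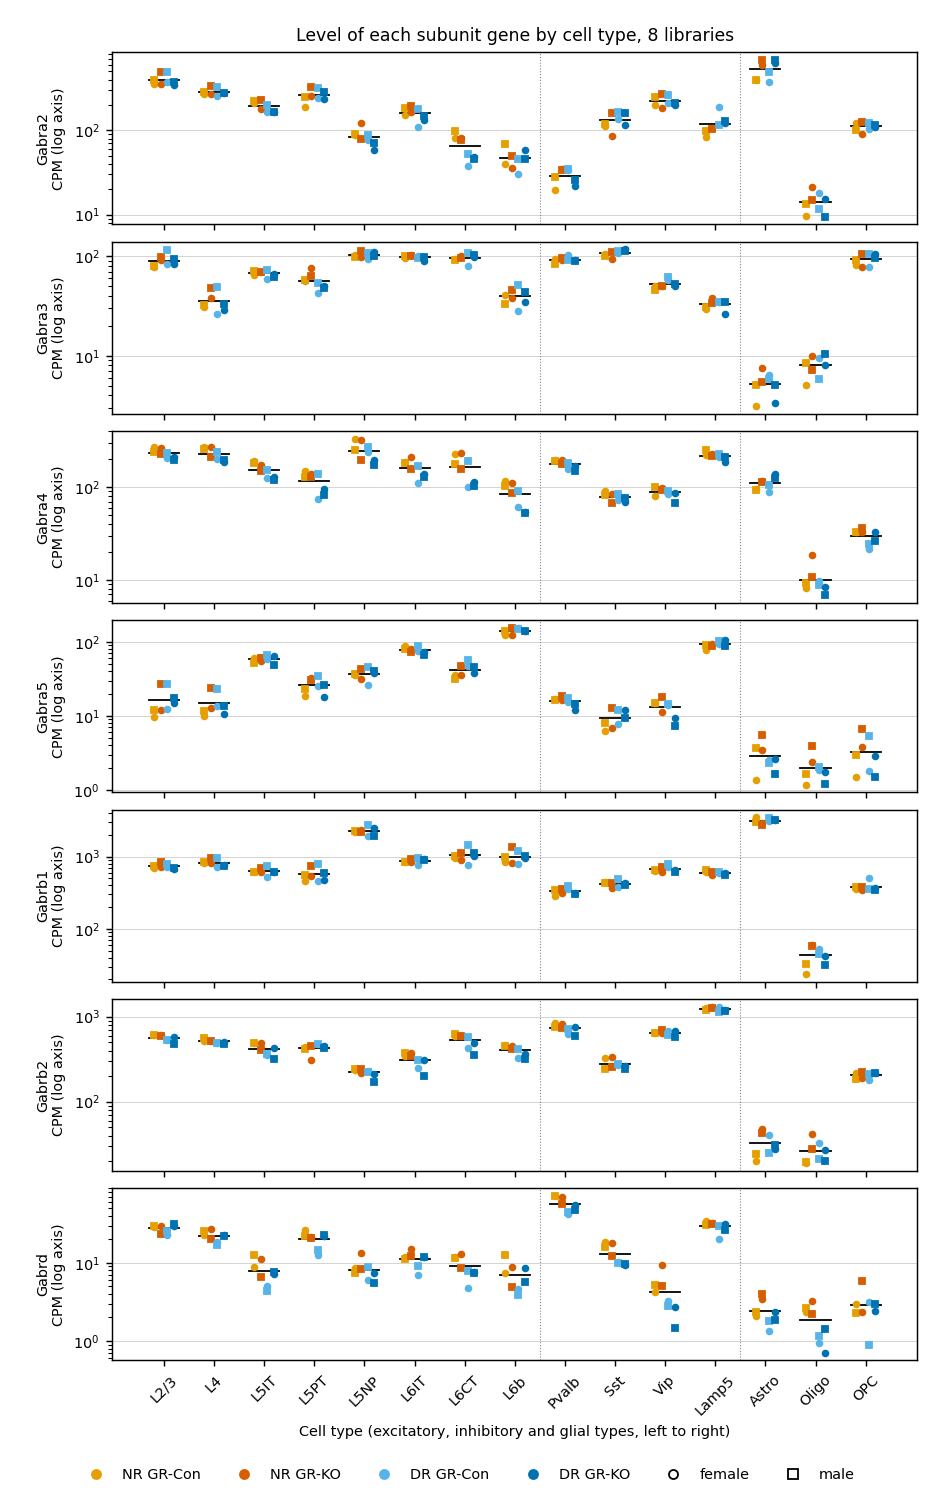
Levels of the 7 subunit genes in 15 cell types, with CPM on a log axis for each type, a point for each of the 8 libraries and a bar for their mean. Gabrb1 was highest in astrocytes (3113 CPM) and lowest in oligodendrocytes (43.2 CPM), while Gabrb2 was highest in Lamp5 interneurons (1229 CPM) and Gabrd in Pvalb interneurons (57.2 CPM).

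Among the alpha subunits, Gabra2 had its highest mean level in astrocytes, 529 ± 130 CPM (SD, n = 8), followed by L2/3 neurons at 399 ± 59.2 and L4 neurons at 288 ± 28.1. Astrocytes and L2/3 neurons did not differ beyond their spread, since astrocytes were higher in 5 of 8 libraries (log2 difference 0.38 ± 0.39 SD, adjusted p = 0.109 by exact permutation), 4 of them the GR-KO libraries. Within GR-Con the group means were 397 CPM in astrocytes and 375 in L2/3 neurons under NR and 432 and 436 CPM under DR, and within GR-KO 636 and 422 CPM under NR and 653 and 363 CPM under DR. L2/3 exceeded L4 in 8 of 8 libraries by 0.46 on the log2 scale. Pvalb interneurons were the lowest neurons for Gabra2, at 29.1 ± 6.21 CPM, and oligodendrocytes were lower still at 14.2 ± 4.17 CPM.

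Gabra3 levels fell in small steps over the upper part of their order, whose ends were not compared. They ran from 107 ± 7.49 CPM in Sst interneurons through 103 ± 6.19 in L5NP neurons down to 90.1 ± 12 in L2/3 neurons, and none of the 6 neighbouring pairs over that stretch differed. Oligodendrocyte precursor cells (OPC) lay within it, at 92.5 ± 11.9 CPM. Levels were lower in L4 neurons (35.8 ± 8.37 CPM) and Lamp5 interneurons (32.8 ± 3.67 CPM), which did not differ from each other, and astrocytes had the least at 5.25 ± 1.47 CPM.

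Gabra4, an alpha subunit found in both synaptic and delta-containing receptors, was highest in L5NP (248 ± 58.9 CPM), L2/3 (231 ± 25.9), L4 (228 ± 33.9) and Lamp5 (219 ± 18.0) neurons. No neighbouring pair among these 4 types differed. Lamp5 exceeded the next type, Pvalb at 177 ± 18.0 CPM, in 8 of 8 libraries. Sst interneurons were the lowest neurons at 78.3 ± 8.50 CPM, and astrocytes held 110 ± 17.4 CPM, within the range of the neurons.

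Gabra5, the alpha subunit of extrasynaptic receptors best known from the hippocampus, was highest in deep-layer and Lamp5 neurons. L6b neurons led at 140 ± 11.3 CPM and exceeded Lamp5 interneurons (92.2 ± 9.12 CPM) in 8 of 8 libraries by 0.60 on the log2 scale. L6IT (77.8 ± 7.30 CPM), L5IT (58.4 ± 5.81) and L6CT neurons (42.3 ± 8.38) followed, with L6IT over L5IT and L5IT over L6CT in 8 of 8 libraries each. L2/3 and L4 neurons were far lower, at 16.6 ± 6.77 and 14.9 ± 5.49 CPM, and did not differ from each other or, for L2/3, from Pvalb interneurons.

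Of the beta subunits, Gabrb1 was the highest in astrocytes, at 3113 ± 248 CPM, and exceeded L5NP neurons (2240 ± 277 CPM) in 8 of 8 libraries by 0.48 on the log2 scale. L5NP neurons in turn exceeded L6CT neurons (1040 ± 195 CPM) by 1.12 on the log2 scale, the widest step among neuron types of this gene. Gabrb2 had a different order. It peaked in Lamp5 interneurons at 1229 ± 60.9 CPM, exceeding Pvalb interneurons (729 ± 89.4 CPM) by 0.76 on the log2 scale in 8 of 8 libraries, and L5NP neurons were the lowest neurons at 222 ± 23.9 CPM. Between these genes the correlation of mean log2(CPM + 1) over the 12 neuron types was r = -0.47, a description over types that come from the same libraries.

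Gabrd, the delta subunit, was the highest of the 15 types in Pvalb interneurons, at 57.2 ± 12.3 CPM, 0.91 on the log2 scale above Lamp5 interneurons (29.7 ± 4.50 CPM) in 8 of 8 libraries. L2/3 neurons (27.8 ± 3.29 CPM) did not differ from Lamp5 and exceeded L4 neurons (21.9 ± 3.37 CPM). Vip interneurons were the lowest neurons at 4.25 ± 2.40 CPM and did not differ from OPC (2.86 ± 1.42 CPM). Chandelier cells, left out with 5 to 14 nuclei a library, held 53.2 to 127 CPM of Gabrd from 7 to 19 UMIs a library, and their 83.8 CPM over all libraries pooled lay above the 56.6 CPM of Pvalb interneurons. By pooled CPM they lay below each of the 12 neuron types for Gabra4 (46.2), Gabra5 (7.83) and Gabrb1 (116), from 59, 10 and 148 UMIs. For Gabra5 the lowest of these types, Sst, was near at 9.66 CPM, and chandelier cells ran from 0 to 19.0 CPM by library.

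Shares of nuclei with a UMI were compared after each nucleus was thinned to 2000 UMIs, because a Pvalb nucleus had a median of 18930 UMIs and an astrocyte 6107. Oligodendrocytes, with a median of 8864 UMIs, were set beside astrocytes as the type with the lowest mean level of each gene but Gabra3, which was lowest in astrocytes. Gabrb1 was detected in 98% of thinned astrocytes against 7.43% of oligodendrocytes, Gabra2 in 55.5% against 2.86% and Gabra4 in 18.0% against 2.02%. The remaining 4 genes were seen in few astrocytes, with Gabrb2 at 6.15% against 5.16%, Gabra3 at 1.09% against 1.79%, Gabra5 at 0.573% against 0.411% and Gabrd at 0.509% against 0.395%. In CPM, astrocytes nonetheless exceeded oligodendrocytes in 8 of 8 libraries for Gabrb2 (by 0.29 on the log2 scale) and Gabra5 (by 0.35), each with adjusted p = 0.0255 by exact permutation. Expression at these low shares was not told apart from free RNA. OPC held Gabrb1 (44.7%), Gabrb2 (31.1%), Gabra2 (18.3%) and Gabra3 (15.9%). Gabrd was seen in 10.8% of thinned Pvalb nuclei and, without thinning, in 60.1% of Pvalb nuclei and 1.645% of astrocytes.

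The features most like 5 of the 7 genes over the 15 cell types, among 5661 with at least 50 CPM in some type, were named by Pearson's r of mean log2(CPM + 1). Gabrb1 was closest to Fmn2 (r = 0.945), Gabra3 to Ncoa5 (r = 0.923), Gabra4 to Prkaa2 (r = 0.920), Gabra5 to Celf4 (r = 0.896) and Gabra2 to Diaph1 (r = 0.864). Among the 7 themselves the closest pairs were Gabrb2 with Gabrd (r = 0.736) and Gabra4 with Gabrb1 (r = 0.716), which dropped to 0.468 and 0.315 over the 12 neuron types alone.

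The comparison of dark with normal rearing asks how visual experience bears on these genes. Over both genotypes, with 4 libraries on each side, edgeR's likelihood ratio test adjusted over all genes of a cell type called 9 of 104 tested pairs of a subunit gene and a cell type, 1 higher and 8 lower in DR. The background was 5.24% of all gene and cell type pairs called, 2.63% lower, against 8.654% of the subunit pairs, and the median log2 difference was -0.07 for the subunit pairs, while the median over cell types of the median of all genes was -0.0048. Of the 9 calls, Gabrd gave 4, Gabra4 gave 3 and Gabra2 gave 2, with 29 of the 104 pairs at an unadjusted p under 0.05. The calls numbered 4 without the NR GR-Con female, 5 without the NR GR-Con male or the NR GR-KO female, 16 without the DR GR-Con male and 17 without the NR GR-KO male. The stricter quasi-likelihood F-test of edgeR called 3 of the 104 pairs against a background of 3.30%, so that under this test the share of subunit pairs called was not above that of all genes.

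**Figure D2:**
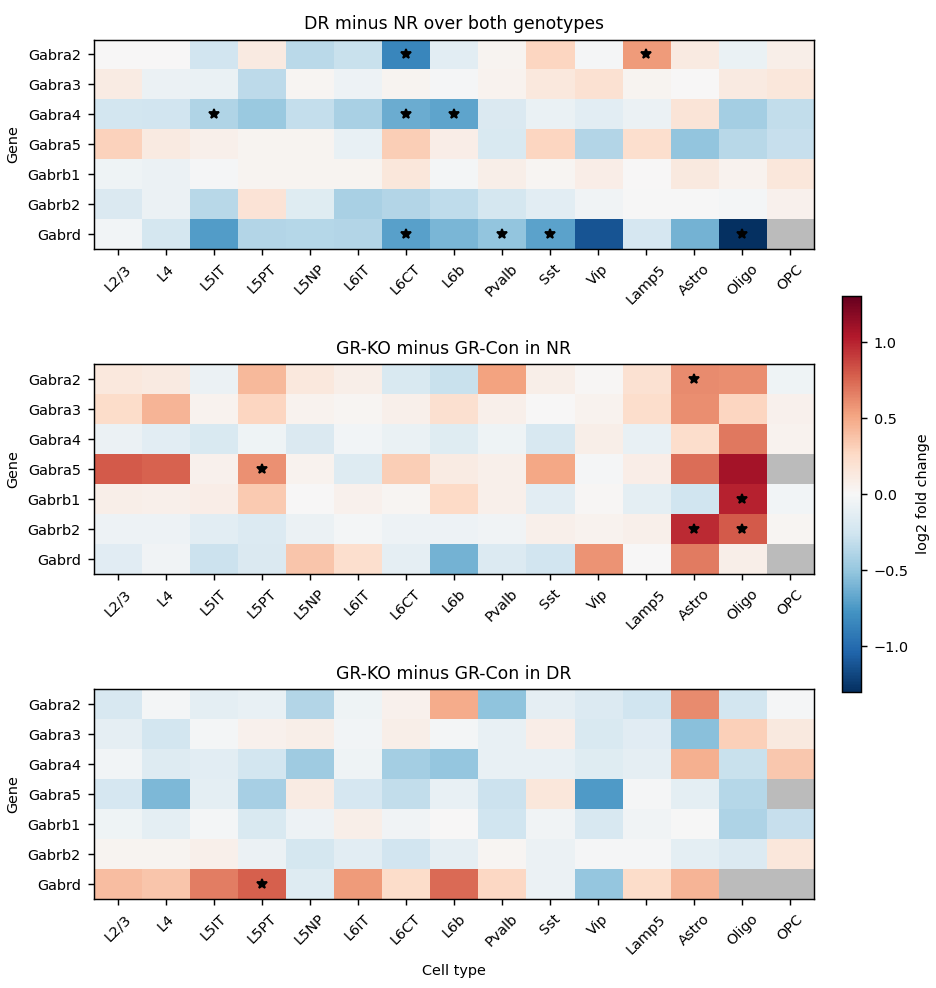
Log2 fold changes of the 7 subunit genes in each cell type, as colour, for DR minus NR over both genotypes and for GR-KO minus GR-Con in NR and in DR, with a star for each pair called and grey for pairs not tested. In DR minus NR, Gabrd was below 0 in 12 of 12 neuron types and so was Gabra4, and in GR-KO minus GR-Con under NR the 4 starred glial pairs were all above 0.

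Gabrd was lower in DR in Pvalb interneurons, where its level was the highest of the 15 types. It measured 71.1 and 71.6 CPM in NR GR-Con, 69.3 and 57.4 in NR GR-KO, 41.7 and 44.3 in DR GR-Con and 55.2 and 47.2 in DR GR-KO. All 4 DR libraries lay below all 4 NR libraries. The log2 difference was -0.51 (SE 0.12, edgeR adjusted p = 0.00279), it remained called by the quasi-likelihood test (adjusted p = 0.0388) and by DESeq2 (adjusted p = 0.00142), and it passed in each of the 8 fits that left out 1 library. In these interneurons 3.30% of all genes were called. The inhibitory markers Gad1, Gad2 and Slc32a1 summed to 505 to 578 CPM in NR and 503 to 607 CPM in DR. The neuron markers Syt1, Snap25, Rbfox3 and Kcnip4 summed to 9241 to 10524 CPM in NR and 9086 to 9238 CPM in DR, and the part of this small shift in the Gabrd difference was not tested.

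The other neuron types showed the same sign at lower levels. In Sst interneurons Gabrd measured 18.7 and 16.2 CPM in NR GR-Con, 17.8 and 12.3 in NR GR-KO, 10.4 and 9.97 in DR GR-Con and 9.39 and 9.69 in DR GR-KO, again with no overlap between rearings. The difference was -0.69 (SE 0.16, edgeR adjusted p = 0.00595), and the quasi-likelihood adjusted p was 0.108. It was not called without the DR GR-Con male (-0.67, adjusted p = 0.0501) or the NR GR-Con female (-0.63, adjusted p = 0.0597).

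In L6CT neurons Gabrd measured 11.9 and 11.4 CPM in NR GR-Con, 13.1 and 8.68 in NR GR-KO, 4.76 and 7.84 in DR GR-Con and 7.55 and 7.33 in DR GR-KO. The rearings did not overlap, and the difference was -0.71 (SE 0.21, edgeR adjusted p = 0.00905, quasi-likelihood adjusted p = 0.0517). Each of 3 NR libraries was needed for the call, which was not made without the GR-Con female (-0.66, adjusted p = 0.0538), the GR-Con male (-0.68, adjusted p = 0.0583) or the GR-KO female (-0.62, adjusted p = 0.0727). Vip interneurons did not pass (-1.12, edgeR adjusted p = 0.0564), although their 4 DR libraries, 1.47 to 3.30 CPM, lay below the 4 NR libraries, 4.21 to 9.32 CPM. With sex as a term in the fit, Gabrd in Vip interneurons was called (edgeR adjusted p = 0.0197). These Vip levels rested on 5 to 21 UMIs of Gabrd a library in DR and 15 to 45 in NR. L2/3 neurons differed by -0.04 (SE 0.15, edgeR adjusted p = 0.909), with 23.7 to 30.1 CPM in NR and 22.9 to 31.9 in DR. The fourth Gabrd call was in oligodendrocytes, where 0.395% of thinned nuclei held a UMI of the gene (-1.29, edgeR adjusted p = 0.0115, 2.20 to 3.26 CPM in NR and 0.709 to 1.41 in DR), and was not made without the DR GR-KO female (-1.12, adjusted p = 0.154), the NR GR-Con male (-1.28, adjusted p = 0.0684) or the NR GR-KO female (-1.16, adjusted p = 0.0555).

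**Figure D3:**
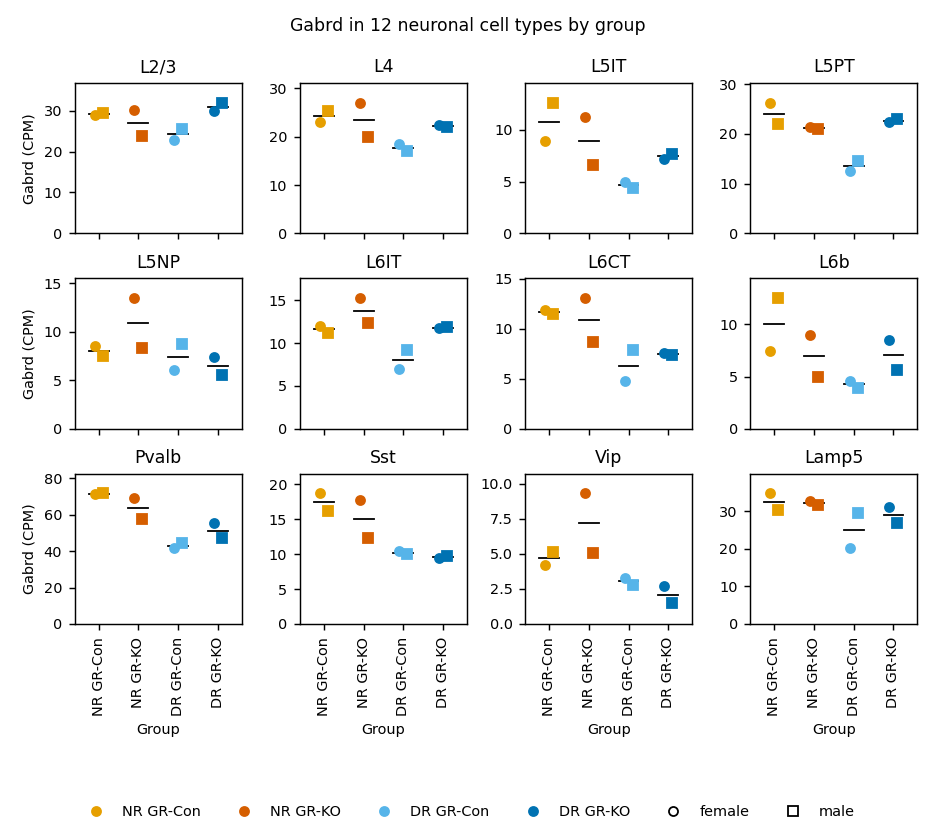
Gabrd level in CPM (linear axis from 0) in each of the 12 neuron types, with a point per library in the 4 groups and the sex of the library by symbol. In Pvalb interneurons the 4 DR libraries (41.7 to 55.2 CPM) sit below the 4 NR libraries (57.4 to 71.6 CPM), whereas in L2/3 neurons the groups overlap.

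Over all 12 neuron types the Gabrd difference was below 0, with a median of -0.44, and 11 or 12 of the 12 stayed below 0 under each other test, filter, scaling and left-out library tried. The types share libraries and the alternatives reuse the same counts, so this count is not one of 12 independent observations. The share of all genes below 0 in every neuron type is not given here. Within genotypes, which share no libraries, the median was -0.68 in GR-Con (12 of 12 types below 0) and -0.22 in GR-KO (9 of 12). In GR-Con alone, Gabrd was called lower in Pvalb interneurons (-0.73, SE 0.12, edgeR adjusted p = 3.6e-06, and -0.79 to -0.67 without 1 library), L5IT, L5PT and Sst neurons. With sex as a term it was also called in L4 (-0.44, edgeR adjusted p = 0.0639 without the term and 0.0393 with it) and L6CT neurons (-0.89, adjusted p = 0.0916 and 0.0304). Without the term, the L6CT difference ran from -1.33 to -0.54 with 1 library left out. Within 1 genotype or 1 rearing the fit with the term has only 4 libraries, which leaves little to estimate the spread from. In GR-KO alone Gabrd was called in 0 of 14 types by the likelihood ratio test, the quasi-likelihood test or DESeq2, with 5 at an unadjusted p under 0.05. Pvalb interneurons differed by -0.28 there (SE 0.16, edgeR adjusted p = 0.511). With sex as a term Gabrd was called in GR-KO in Vip interneurons (-1.71 without the term, edgeR adjusted p = 0.119, and 0.0143 with it). There the 2 DR GR-KO libraries held only 10 and 5 UMIs of Gabrd. Over both genotypes L5IT neurons did not pass (-0.72, SE 0.27, edgeR adjusted p = 0.0942). The L5IT call in GR-Con (-1.20, edgeR adjusted p = 0.000137) was not made without the NR GR-Con male (-0.94, adjusted p = 0.102), and the Sst call (-0.78, adjusted p = 0.0154) not without any of the 4 libraries (-0.88 to -0.68, adjusted p = 0.057 to 0.345).

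L5PT neurons, which project to subcortical targets, gave the only Gabrd call in the test of whether the 2 genotypes responded differently to rearing. Gabrd measured 26.3 and 21.9 CPM in NR GR-Con, 21.5 and 21.1 in NR GR-KO, 12.6 and 14.5 in DR GR-Con and 22.4 and 23.0 in DR GR-KO. The DR GR-Con pair stood below the other 6 libraries. DR minus NR was -0.84 (SE 0.18, edgeR adjusted p = 0.000467) in GR-Con and 0.13 (SE 0.17, adjusted p = 0.864) in GR-KO, GR-KO minus GR-Con in DR was 0.77 (SE 0.18, adjusted p = 0.00645), and the interaction, genotype effect under NR less genotype effect under DR, was -0.97 (SE 0.24, adjusted p = 0.0249). None of these passed the quasi-likelihood test (adjusted p = 0.0687 for rearing in GR-Con, 0.367 for genotype in DR and 0.412 for the interaction).
Leaving out the NR GR-Con female ended the rearing call (-0.69, edgeR adjusted p = 0.181). The genotype call in DR was lost without the DR GR-Con female (0.65, adjusted p = 0.0938), the DR GR-KO female (0.77, adjusted p = 0.265) or the DR GR-KO male (0.79, adjusted p = 0.25), and the interaction without any of these (-0.83, -0.97 and -0.97), the NR GR-Con female (-0.82) or the NR GR-KO male (-0.91). The NR GR-KO female gave only 59 L5PT nuclei.

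Gabra4, a frequent partner of delta, was also below 0 in 12 of 12 neuron types in DR, with a median of -0.28. This count held under each other test, filter, scaling and left-out library tried, all of which reuse the same counts. The types share libraries here too, and the share of all genes below 0 in every neuron type is not given. In L6b neurons it measured 116 and 103 CPM in NR GR-Con, 110 and 86.5 in NR GR-KO, 61.8 and 90.7 in DR GR-Con and 54.5 and 52.5 in DR GR-KO. Only the DR GR-Con male reached the NR range. The likelihood ratio test of edgeR called L6b (-0.69, SE 0.16, adjusted p = 0.0109), L6CT (-0.65, SE 0.23, adjusted p = 0.0433) and L5IT neurons (-0.39, SE 0.12, adjusted p = 0.0286), while 0 of the 3 passed its quasi-likelihood test (adjusted p = 0.214, 0.0978 and 0.0666) and DESeq2 called all 3 (adjusted p = 0.0107, 0.0258 and 0.0122). With sex as a term L6CT neurons no longer passed (edgeR adjusted p = 0.0522). In L6CT neurons the levels were 229 and 179 CPM in NR GR-Con, 231 and 157 in NR GR-KO, 101 and 192 in DR GR-Con and 112 and 104 in DR GR-KO, so that the DR GR-Con male again lay among the NR libraries.
These 3 calls depended on single libraries. Without the DR GR-Con female the differences were -0.60, -0.51 and -0.32 in L6b, L6CT and L5IT neurons, and without the DR GR-KO male -0.63, -0.58 and -0.37, with no call in any of the 3. None was made without the NR GR-Con female either (-0.68, -0.61 and -0.38). Without the DR GR-KO female L6b (-0.67) and L6CT neurons (-0.65) were lost, without the NR GR-KO female L6CT (-0.49) and L5IT neurons (-0.34), and without the NR GR-Con male L5IT neurons (-0.40). In astrocytes Gabra4 differed by 0.17 (SE 0.12, edgeR adjusted p = 0.695).

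Gabra2 moved in opposite directions in 2 neuron types. In L6CT neurons, which project to the thalamus, it fell, from 81.7 and 97.8 CPM in NR GR-Con and 80.5 and 77.5 in NR GR-KO to 38.2 and 53.1 in DR GR-Con and 49.0 and 45.9 in DR GR-KO. The rearings did not overlap, and the log2 difference was -0.84 (SE 0.14, edgeR adjusted p = 3.7e-07, quasi-likelihood adjusted p = 0.0092), called in each of the 8 fits that left out 1 library. L6CT neurons were the type with 12.5% of all genes called in this comparison. Within genotypes the difference was -0.97 in GR-Con (edgeR adjusted p = 0.00522) and -0.72 in GR-KO (adjusted p = 0.000146). The former was lost without the NR GR-Con female (-1.10, adjusted p = 0.111) or male (-0.84, adjusted p = 0.574) and the latter without the DR GR-KO male (-0.63, adjusted p = 0.194).
In Lamp5 interneurons Gabra2 rose, from 84.0 and 98.8 CPM in NR GR-Con and 106 and 104 in NR GR-KO to 191 and 116 in DR GR-Con and 123 and 130 in DR GR-KO. The rearings did not overlap, although the DR GR-Con female stood apart from the rest. The log2 difference was 0.56 (SE 0.15, edgeR adjusted p = 0.012, quasi-likelihood adjusted p = 0.0485), and the call was not made without the NR GR-Con female (0.47, adjusted p = 0.093) or male (0.55, adjusted p = 0.0556). Without the DR GR-Con female the difference shrank to 0.36 and was still called (edgeR adjusted p = 0.0404).

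Gabra3, Gabra5, Gabrb1 and Gabrb2 gave 0 calls over both genotypes by the likelihood ratio test, the quasi-likelihood test or DESeq2, with 1, 1, 0 and 5 of 15 types at an unadjusted p under 0.05. With sex as a term 1 pair of these genes was called, Gabrb2 in L5IT neurons (-0.36, edgeR adjusted p = 0.101 without the term and 0.0353 with it). Gabra3 differed by -0.34 to 0.20 over 15 types and Gabrb1 by -0.08 to 0.15. In Sst interneurons, where Gabra3 was highest, it measured 105 and 99.7 CPM in NR GR-Con, 94.0 and 110 in NR GR-KO, 107 and 113 in DR GR-Con and 117 and 113 in DR GR-KO, so the groups overlapped. Gabrb2 was below 0 in 11 of 12 neuron types, with a median of -0.17. In GR-Con alone it was called lower in L5IT neurons (492 and 497 CPM in NR, 356 and 363 in DR, -0.46, edgeR adjusted p = 0.0189, quasi-likelihood adjusted p = 0.0357), a call that leaving out any of these 4 libraries ended (-0.50 to -0.42, adjusted p = 0.0667 to 0.292).

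Within each genotype there were 2 libraries a side. In GR-Con 7 of 103 pairs were called, 1 higher and 6 lower, against a background of 2.25%, of which 0.840% lower. In GR-KO 10 of 118 pairs were called, all lower, against 3.66%, of which 1.96% lower. Median UMIs per nucleus were 29223 and 22827.5 in NR GR-KO and 14861 and 14928.5 in DR GR-KO. In GR-Con they were 15884 and 17759.5 in NR and 20161 and 16968 in DR, and the part of depth in these calls was not tested. The quasi-likelihood test called 3 pairs in GR-Con (background 0.495%) and 5 in GR-KO (background 0.857%). With sex as a term the split in GR-Con was another, 16 calls with 7 higher and 9 lower, and in GR-KO 19 were called, all lower. The share of all genes called with the term is not given here. These counts therefore have no background to be read against, and they come from fits of only 4 libraries with a further term. The 7 higher in GR-Con were Gabra5 in L2/3 (0.81, edgeR adjusted p = 0.0362 with the term), L4 (0.78, adjusted p = 0.00273), L5PT (0.54, adjusted p = 0.00795) and L6CT neurons (0.64, adjusted p = 0.042) and Gabra2 in Lamp5 (0.79, adjusted p = 0.000604), Pvalb (0.54, adjusted p = 0.0219) and L5PT neurons (0.37, adjusted p = 0.0493), the differences being those without the term. With 1 library left out, also without the term, the Gabra5 difference ran from 0.11 to 1.27 in L2/3 and from 0.34 to 1.12 in L4 neurons. Gabra5 measured 27.0 CPM in L2/3 and 23.0 in L4 neurons of the DR GR-Con male. In the DR GR-Con female it measured 12.3 and 13.8 CPM. The GR-Con count was 11 without the DR GR-Con female, 20 without the DR GR-Con male, 2 without the NR GR-Con female and 4 without the NR GR-Con male. The GR-KO count was 2 without the DR GR-KO male and 25 without the NR GR-KO male. The higher call in GR-Con without the term was Gabra5 in L6CT neurons, 35.7 and 31.1 CPM in NR and 47.4 and 56.4 in DR (0.64, edgeR adjusted p = 0.045). It was lost without the NR GR-Con female (0.74, adjusted p = 0.511), the NR GR-Con male (0.53, adjusted p = 1) or the DR GR-Con male (0.47, adjusted p = 0.0647).
Of the 10 calls in GR-KO, 4 were in VLMC, a class of 20 to 65 nuclei in these libraries in which 19.9% of all genes were called, and the other 6 were Gabra2 in L6CT and Pvalb neurons, Gabra4 in L6CT and L6b neurons, Gabrb1 in oligodendrocytes and Gabrb2 in astrocytes. Of these 6, each was lost without 1 library or more. Gabra2 in L6CT neurons (-0.72, edgeR adjusted p = 0.000146) was not called without the DR GR-KO male (-0.63, adjusted p = 0.194). Gabra2 in Pvalb interneurons (-0.50, adjusted p = 0.0371) was not called without the DR GR-KO female (-0.38), the DR GR-KO male (-0.61) or the NR GR-KO female (-0.44). The same 3 libraries were each needed for Gabra4, which without them in that order differed by -0.91, -0.73 and -0.52 in L6CT neurons (-0.83 with all) and by -0.93, -0.82 and -0.68 in L6b neurons (-0.87 with all). Gabrb1 in oligodendrocytes (-0.65) was lost without the DR GR-KO male (-0.45), and Gabrb2 in astrocytes (-0.56) without the DR GR-KO female (-0.50) or male (-0.61). The 4 neuron markers in GR-KO summed to 757 to 1091 CPM in NR and 419 to 428 in DR in oligodendrocytes and to 1197 to 1322 and 726 to 776 CPM in astrocytes, and their part in these glial calls was not tested. In VLMC the Gabra3 and Gabra4 calls were lost without the DR GR-KO male (-2.09 and -1.66), and that of Gabra4 without the NR GR-KO female (-0.93). In VLMC Gabra2 measured 209 and 293 CPM in NR GR-KO and 30.0 and 58.6 in DR GR-KO (-2.78, edgeR adjusted p = 2.3e-10). The summed level of the 4 neuron markers in the same nuclei was 8628 to 11940 CPM in NR GR-KO, against 9063 to 23404 CPM over the 12 neuron types, and 1312 to 1519 CPM in DR GR-KO, and its part in these calls was not tested.

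The knockout comparison asks what loss of GR from astrocytes does to these genes in astrocytes and in other cells. Over both rearings 1 of 104 pairs was called (0.9615%, background 0.400%), Gabra2 in astrocytes, with 6 pairs at an unadjusted p under 0.05. Without the DR GR-Con female the count was 2. The quasi-likelihood test (background 0.196%) and DESeq2 each called 1 pair too.

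Gabra2 in astrocytes measured 399 and 394 CPM in NR GR-Con, 378 and 487 in DR GR-Con, 595 and 677 in NR GR-KO and 625 and 682 in DR GR-KO. All 4 GR-KO libraries lay above all 4 GR-Con libraries, under both rearings. The log2 difference was 0.61 (SE 0.12, edgeR adjusted p = 5.7e-05, quasi-likelihood adjusted p = 0.00777, DESeq2 adjusted p = 2.5e-06), it was called in each of the 8 fits without 1 library, and it ran from 0.53 to 0.70 over them. In astrocytes 4.79% of all genes were called. Under NR the difference was 0.62 (edgeR adjusted p = 0.00214) and was not called without the NR GR-Con female (0.63, adjusted p = 0.0743), the NR GR-Con male (0.59, adjusted p = 0.063) or the NR GR-KO male (0.53, adjusted p = 0.0831). Under DR it was 0.61 (adjusted p = 0.313), and the interaction was -0.0042 (SE 0.26, adjusted p = 1.00).

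Over both rearings none of the other subunit genes was called in astrocytes, and their differences ran from -0.14 for Gabrb1 to 0.58 for Gabrd (SE 0.27, edgeR adjusted p = 0.285). Gabra4 measured 94.4 and 93.4 CPM in NR GR-Con, 88.9 and 106 in DR GR-Con, 115 and 114 in NR GR-KO and 139 and 126 in DR GR-KO. The genotypes did not overlap, but the difference of 0.34 (SE 0.12) did not pass (edgeR adjusted p = 0.0749). Gabrb1 differed by -0.14 (SE 0.12, edgeR adjusted p = 0.778), with 2979 to 3465 CPM in GR-Con and 2704 to 3207 in GR-KO.

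Under NR, 5 of 113 pairs were called by the likelihood ratio test without a sex term, each higher in GR-KO. The background over all cell types was 0.804%, of which 0.491% higher, and the quasi-likelihood test called 3 (background 0.361%). All 5 lay in astrocytes, oligodendrocytes and L5PT neurons, where the likelihood ratio test called 7.11%, 1.53% and 1.44% of all genes. The likelihood ratio calls numbered 2 without the NR GR-Con female and 3 without the NR GR-Con male. With sex as a term 9 pairs were called. No share of all genes called is given for that fit, so this count has no background. Among the 9 was Gabrb1 in astrocytes, lower in GR-KO (-0.26, edgeR adjusted p = 0.542 without the term and 0.0243 with it). Without the term, this Gabrb1 difference ran from -0.38 to -0.14 with 1 library left out. Also called with the term, and higher, were Gabra2 in Pvalb interneurons (adjusted p = 0.0281) and Gabra3 and Gabra5 in L4 neurons (adjusted p = 0.0267 and 0.022). Beside Gabra2 in astrocytes, the 5 called without that term were Gabrb2 in astrocytes and oligodendrocytes, Gabrb1 in oligodendrocytes and Gabra5 in L5PT neurons. Gabrb2 in astrocytes measured 20.2 and 24.2 CPM in NR GR-Con and 47.6 and 43.4 in NR GR-KO (0.97, SE 0.17, edgeR adjusted p = 5.8e-07), and Gabrb1 in oligodendrocytes 23.8 and 32.9 against 59.9 and 57.9 (1.00, SE 0.17, adjusted p = 4.7e-06). Both were called in each of 4 fits without 1 library, and both genes were seen in few nuclei of the cell type concerned (6.15% of thinned astrocytes for Gabrb2 and 7.43% of thinned oligodendrocytes for Gabrb1). The summed level of the 4 neuron markers was 644 to 739 CPM in the NR GR-Con astrocytes and 1197 to 1322 in the NR GR-KO astrocytes, and in oligodendrocytes 355 to 381 and 757 to 1091, and the part of neuronal RNA in these calls was not tested. In DR the markers were at 711 to 1043 CPM in GR-Con astrocytes and 726 to 776 in GR-KO astrocytes, where Gabrb2 measured 40.8 and 24.8 CPM and 27.8 and 31.1 CPM.

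**Figure D4:**
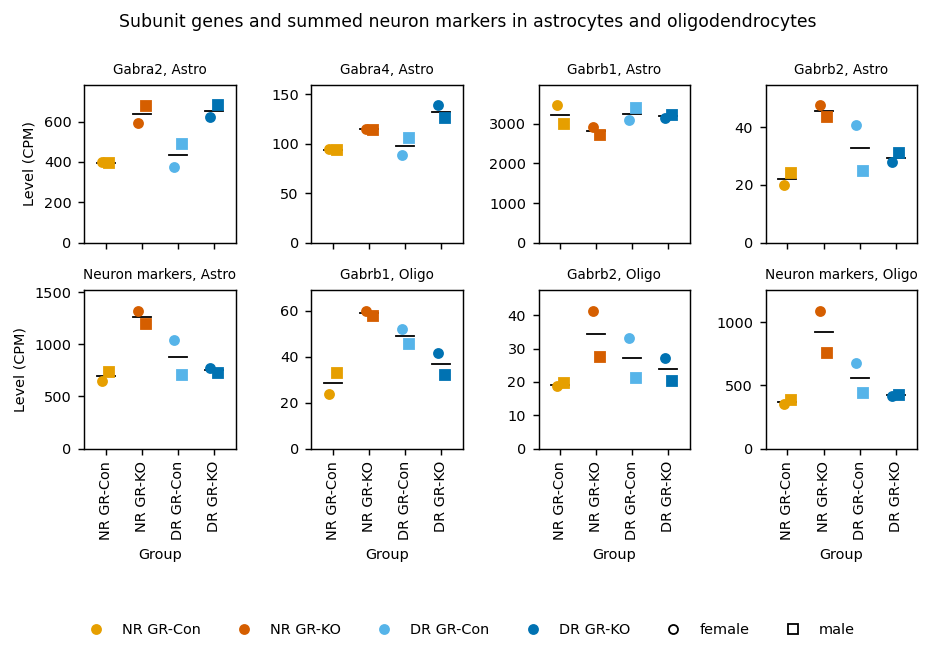
Levels in CPM (linear axes from 0) of Gabra2, Gabra4, Gabrb1 and Gabrb2 in astrocytes and of Gabrb1 and Gabrb2 in oligodendrocytes by group, with a point per library, beside the summed level of 4 neuron markers in the same nuclei. Gabra2 is higher in both GR-KO groups, whereas Gabrb2 and the neuron markers in astrocytes are highest in NR GR-KO (43.4 and 47.6 CPM for Gabrb2).

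The other 2 calls rested on single libraries. Gabrb2 in oligodendrocytes (18.9 and 19.6 CPM in NR GR-Con, 41.3 and 27.6 in NR GR-KO, 0.80, edgeR adjusted p = 0.0383) was lost without the NR GR-Con female (0.80, adjusted p = 0.32), the NR GR-Con male (0.80, adjusted p = 0.372) or the NR GR-KO female (0.48, adjusted p = 0.333). Gabra5 in L5PT neurons (18.4 and 23.0 CPM against 32.2 and 30.9, 0.60, adjusted p = 0.046) was lost without any of the 4 libraries (0.46 to 0.76, adjusted p = 0.0624 to 1), and the NR GR-KO female held 59 of these nuclei.

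Under DR, 1 of 102 pairs was called against a background of 0.513%, Gabrd in L5PT neurons as above. A fit with sex as a term called 3, with the share of all genes called in that fit not given here. The quasi-likelihood test (background 0.00431%) and DESeq2 called 0, with 14 pairs at an unadjusted p under 0.05 by the likelihood ratio test. The count was 5 without the DR GR-Con female, 6 without the DR GR-Con male and 0 without either DR GR-KO library. The interaction was called in 3 of 104 pairs, against a background of 0.181%, and the quasi-likelihood test called 0 (background 0.00276%), with 16 at an unadjusted p under 0.05 by the likelihood ratio test. That count was 5 without either DR GR-Con library, 6 without the NR GR-KO female and 1 without the DR GR-KO female or the NR GR-Con female.
Besides Gabrd in L5PT neurons, the interaction was called for Gabrb1 in oligodendrocytes (1.39, edgeR adjusted p = 0.000487) and Gabra2 in Pvalb interneurons (1.04, adjusted p = 0.00997). With sex as a term it was also called for Gabra5 in L4 (1.34, edgeR adjusted p = 0.387 without the term and 0.00258 with it) and L5PT neurons (1.03, adjusted p = 0.176 and 0.0198). Gabra2 in Pvalb interneurons measured 19.5 and 27.7 CPM in NR GR-Con, 34.9 and 33.7 in NR GR-KO, 34.1 and 35 in DR GR-Con and 21.8 and 26.2 in DR GR-KO, so that GR-KO was the higher genotype in NR and the lower in DR. That call was not made without the DR GR-KO female (0.92, adjusted p = 0.346) or the NR GR-Con female (0.83, adjusted p = 0.074), and that of Gabrb1 not without the DR GR-KO male (1.21, adjusted p = 0.0601).

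Other genes of GABA signalling were counted from lists, whose shares called are to be read against the 5.24% of all pairs called over both genotypes. Of 19 genes of the inhibitory synapse scaffold and of receptor assembly, 12 pairs of gene and cell type were higher and 6 lower in DR over both genotypes of 274 (6.57%, median log2 difference 0.0076). Mdga1, a binding partner of neuroligins, was higher in 6 excitatory types (0.78 to 2.44) and the receptor-associated proteins Lhfpl4 and Shisa7 in 3 types each. For GABA uptake 5 pairs were higher and 1 lower of 29 (20.7%, median 0.17), the 5 being the transporter Slc6a11. For chloride transport 0 were higher and 2 lower of 60 (3.33%, median 0.03), and for GABA-B receptors 2 were higher and 0 lower of 71 (2.82%, median 0.13), both of them Kctd8. The share was above 5.24% for GABA uptake, near it for the scaffold list and below it for the other lists.
In GR-KO under NR, Gabrg3, a gamma subunit gene, was higher in L4 neurons (1.44, SE 0.29, edgeR adjusted p = 0.00071) and in astrocytes, oligodendrocytes and OPC. The neuron markers were also higher in these 3 glial types, and their part in the glial calls of these lists was not tested. In the same comparison, with 0.804% of all pairs called, 3 of 80 pairs of the GABA-B list (3.75%) and 2 of 66 of the chloride transport list (3.03%) were called, all higher, against 1 of 300 of the scaffold list (0.333%), Insyn2b in L5PT neurons, which was lower (-1.76). The auxiliary GABA-B subunit Kctd16 was higher in the 3 glial types and the neuronal chloride exporter Slc12a5 in 2 of them (0.65 in astrocytes and 0.78 in oligodendrocytes). Kctd16 and Slc12a5 gave all calls of the GABA-B and chloride transport lists. By cell type, 7.11% of all genes were called in astrocytes, 1.53% in oligodendrocytes and 0.355% in OPC.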

How the data were processed

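Nuclei from V1 of 8 mice were profiled with the 10x 3′ kit. Per the submitters' notes and the methods, the authors counted reads with Cell Ranger 8.0.1 against mm10 with the viral sequences added, removed nuclei with fewer than 500 or more than 70000 gene counts, removed doublets with DoubletFinder and clusters without markers, and merged libraries in Seurat 5.3.0. The authors deposited UMI counts per nucleus, not normalized, with a cell type name and a mitochondrial percent for each nucleus, the latter not used here. The methods give default settings, under which this version of Cell Ranger counts intronic as well as exonic reads, on the sense strand, so that long genes can gain counts from introns.

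Here UMIs were summed per library and cell type with at least 10 nuclei in every library of a fit. Genes were kept by filterByExpr, scaled by TMM and tested with edgeR 4.0.16 (likelihood ratio test, as in the study, with Benjamini-Hochberg adjustment over all genes of a cell type, called under 0.05) in R 4.3.3. The edgeR quasi-likelihood test, DESeq2 1.42.0, RLE factors, no filter, at least 50 nuclei, 1 fit over all libraries, sex as a term and leaving out each library were alternatives. Levels used log2(CPM + 1), with a pseudocount of 10 and per-nucleus means as alternatives. The tests were checked on simulated counts. Levels between genes were not compared, since CPM is not per length. Depth was 168632129 to 288774016 UMIs per library, and intervals are between libraries.

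The 7 genes, the type markers and the lists (scaffold and assembly, chloride transport, GABA-B receptors, GABA uptake, class markers) were chosen with earlier results of these data known. Named are all 7, the feature most like each of 5, and of each list at most 3 genes called in the most cell types. Gabrg3 comes from a list of the other GABA-A subunit genes, whose counts, and the features most like Gabrb2 and Gabrd, are not reported here. Gabrd in L5IT neurons over both genotypes was named after its values were seen.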

Additional observations from a re-analysis of the deposited data

Results flagged for a closer look

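The 3 results here differed between groups by a test of the difference itself, edgeR's likelihood ratio test without a sex term. Each value is the genotype effect (GR-KO minus GR-Con) under NR less that under DR. Gabrb1 in oligodendrocytes gave 1.39 on the log2 scale, from 23.8 and 32.9 CPM in NR GR-Con, 59.9 and 57.9 in NR GR-KO, 52.1 and 45.4 in DR GR-Con and 41.6 and 31.9 in DR GR-KO. The 4 neuron markers in these nuclei summed to 355 to 381, 757 to 1091, 438 to 678 and 419 to 428 CPM in the same order, and their part was not tested. Gabra2 in Pvalb interneurons gave 1.04, with every GR-KO library above both GR-Con libraries in NR and below both in DR. Gabrd in L5PT neurons gave -0.97, with the DR GR-Con libraries (12.6 and 14.5 CPM) below all others. None of the 3 passed the quasi-likelihood test (adjusted p = 0.136, 0.243 and 0.412), and with 2 mice a group the cause of each was not tested.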

How the results depend on the processing

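By replicate number, no paired analysis was possible because the deposited library names carry none. Each group held 1 female and 1 male, and the fit with sex as a term compared libraries within sex. Within 1 genotype or 1 rearing that fit had only 4 libraries, which leaves little to estimate the spread from. Counts of called pairs are given for DR against NR in GR-Con (7), in GR-KO (10) and over both genotypes (9), for genotype in NR (5), in DR (1) and over both rearings (1), and for the interaction (3). The quasi-likelihood test gave 3, 5 and 3 for rearing, 3 and 0 for genotype in NR and in DR, and 0 for the interaction. DESeq2 gave 4 for rearing in GR-KO, 3 for genotype in NR and 0 in DR. Sex as a term gave 16 and 19 for rearing in GR-Con and in GR-KO, 9 and 3 for genotype in NR and in DR, and 5 for the interaction. The share of all genes called with that term is not given here, so these counts have no background. A fit over all 8 libraries gave 2 for rearing in GR-KO and 3 for genotype in NR, and at least 50 nuclei gave 6 for rearing in GR-KO. Leaving out 1 library gave 2 to 20, 2 to 25 and 4 to 17 for rearing, 2 to 7 for genotype in NR, 0 to 6 in DR, 1 to 2 over both rearings, 1 to 6 for the interaction and 0 to 35 of 98 for neighbouring cell types (34 with all libraries). Where this left 1 library on a side, that library was assumed to vary like the others. Over the 36 called values, no alternative turned a direction. Of 195 values with 1 library left out 76 were no longer called, and of 199 under the other alternatives 47 were not. The cause of these losses was not tested, beyond fewer samples entering the former. Gabrd at 1 to 3 CPM in oligodendrocytes, Gabrd at 5 to 45 UMIs a library in Vip interneurons and classes of 20 to 65 nuclei are limited by depth.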

Other observations

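Gabra5 in the upper layers was high in 2 of 8 libraries. In L2/3 neurons it measured 26.8 CPM in the NR GR-KO male and 27.0 CPM in the DR GR-Con male, against 9.79 to 17.7 CPM in the other 6, and in L4 neurons 24.1 and 23.0 CPM in the same libraries against 9.96 to 13.8 CPM. Gabra3 in L4 neurons was also highest in these libraries, at 47.6 and 48.5 CPM against 26.1 to 38.3 CPM. Both mice were male and belonged to different groups, and the libraries were singled out after their values were seen. In L6b neurons, where Gabra5 is highest, they measured 153 and 148 CPM against 123 to 152 CPM in the others.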
